A study of Mus musculus with 4 samples.

Results

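Interferon-responding capillary endothelial cells of the mouse lung were selected from single-cell RNA-seq data on the detection of 5 interferon-induced genes. A cell was placed in the capillary gate when it held at least 4 unique molecular identifiers (UMIs, one per captured transcript molecule) summed over the endothelial genes Cdh5, Cldn5, Egfl7, Ramp2 and Calcrl and none of the leukocyte gene Ptprc, with fewer than 3 of 5 aerocyte genes (Ednrb, Car4, Fibin, Tbx2 and Chst1) and at most 1 of 4 venous genes (Slc6a2, Bst1, Car8 and Selp) detected. Gate cells with at least 3 of Ifit1, Ifit3, Isg15, Iigp1 and Gm4951 detected are called interferon-responding here, and gate cells with none of the 5 are called interferon-negative. The interferon-responding cells numbered 667 of 2891 gate cells, among 9363 cells in all. They were compared with 1064 interferon-negative cells, and the remaining 1160 gate cells had 1 or 2 of the 5 genes. The counts of the 5 genes chose the cells, so their levels and every other gene that separates the responding from the negative cells are given as a description without a test.

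Whole lungs of 4 mice were dissociated enzymatically 90 days after 5 daily injections of 0.5 mg tamoxifen, and each mouse gave 1 library. The 2 WT mice were ERG fl/fl, carrying floxed Erg alleles without Cre, and the 2 ERG CKO mice were CDH5-CreER(T):ERG fl/fl, in which the Cdh5 promoter drives a tamoxifen-inducible Cre in endothelial cells. Mice of both genotypes received tamoxifen, were on a C57/BL6 background and had no lung injury named in the labels, and their age is not given there. The design compares WT with ERG CKO lungs, and the question followed here is what the interferon-responding cells express and whether their number and their genes differed by genotype. Values below are given in the order WT 1, WT 2, ERG CKO 1 and ERG CKO 2. The sex of the mice is not in the labels used here, but the female-specific transcript Xist stood at 1064, 0, 1225 and 0 CPM and the Y-linked Ddx3y at 0, 110, 0 and 117 CPM in the responding cells, so each genotype had 1 female (replicate 1) and 1 male (replicate 2).

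Interferons are secreted cytokines that signal through cell-surface receptors and the JAK-STAT pathway. Type I interferons act mainly through the interferon-stimulated response element of their target genes, whereas interferon-gamma acts mainly through gamma-activated sites, and many target genes answer to both. The targets include antiviral effectors such as the IFIT proteins and the ubiquitin-like modifier ISG15, the immunity-related and guanylate-binding GTPases that attack intracellular pathogens, antigen presentation genes and chemokines that recruit T cells, and lung capillary endothelial cells are among the cells that express them.

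Promoter sequences are shown for genes that chose the cells or were high in them, since the response element can be read directly in them. Promoters run from 250 bases before to 50 bases after the start of each gene in RefSeq (GRCm38.p6), and 3 of the 5 selecting genes had an entry. Capitals mark each match to the core letters GAAANNGAAA or, on the other strand, TTTCNNTTTC, with overlapping matches joined, and each sequence is printed 5′ to 3′ on the strand of the gene. Ifit1 and Ifit3 encode RNA-binding antiviral proteins, ISG15 is conjugated to target proteins, CXCL10 attracts T cells, Tgtp2 and Irgm2 encode immunity-related GTPases and SOCS1 is a feedback inhibitor of JAK kinases. 
Ifit1, chr19:34640760-34640838, plus strand: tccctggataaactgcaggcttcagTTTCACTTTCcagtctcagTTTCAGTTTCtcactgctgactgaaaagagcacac
Ifit3, chr19:34583348-34583441, plus strand: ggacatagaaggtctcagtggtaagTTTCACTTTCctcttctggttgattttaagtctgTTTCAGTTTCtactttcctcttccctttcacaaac
Isg15, chr4:156200850-156200921, minus strand: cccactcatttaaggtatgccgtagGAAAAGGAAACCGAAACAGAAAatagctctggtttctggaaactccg
Cxcl10, chr5:92349068-92349127, minus strand: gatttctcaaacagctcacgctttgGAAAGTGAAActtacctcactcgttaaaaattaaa
Tgtp2, chr11:49064248-49064307, minus strand: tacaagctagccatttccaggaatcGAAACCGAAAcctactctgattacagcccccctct
Irgm2, chr11:58214888-58214947, plus strand: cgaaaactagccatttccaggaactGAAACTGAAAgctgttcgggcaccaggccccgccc
Socs1, chr16:10785579-10785644, minus strand: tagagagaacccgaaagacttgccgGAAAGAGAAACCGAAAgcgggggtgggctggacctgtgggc

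The first match began 104 bases before the start of Ifit1, 156 before that of Ifit3 and 78 before that of Isg15. The same core was found in 3.99% of the promoters of 27025 genes. The 94-base stretch of Ifit3 is identical, letter for letter, to that of the neighbouring Ifit3b at chr19:34607744-34607837, so reads of these near-identical genes may be divided unevenly between them. A match describes the letters of the window and is not evidence that a factor binds there.

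The libraries held 11263911 to 18646776 UMIs. Interferon-responding cells were deeper than interferon-negative cells in every library, with median UMIs per cell of 4426, 4207, 5702 and 4918 against 1836, 2757, 1577 and 1645. The median share of mitochondrial UMIs per cell was 3.65%, 3.60%, 3.82% and 3.33% in the responding cells and 5.83%, 4.52%, 6.74% and 5.47% in the negative cells. A cell with few UMIs is less likely to show 3 of 5 genes, so depth enters the selection, and values from cells thinned to 2000 UMIs are given below.

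Some cells in the gate also carried many transcripts of another lineage. Among the responding cells, 22, 14, 15 and 3 held over 20 UMIs of the markers of another cell type, which were mural markers in 20 cells, epithelial in 14, fibroblast in 13, platelet in 11 and macrophage or monocyte in 10, with some cells counted under several lists. No responding cell passed this limit for T cell, B cell or neutrophil markers. These 54 cells held 36.3%, 31.6%, 14.1% and 15.1% of the UMIs of the responding cells, and a single WT 2 cell with 235523 UMIs held 17.6% of those of its library. Levels are given as CPM, the UMIs of a gene scaled to a common total per library. The summed level of 9 epithelial markers in the responding cells was 37758, 100709, 1246 and 16713 CPM with these cells and 626, 613, 777 and 490 CPM without them. They are called mixed-lineage cells below, and comparisons of genotype are given with and without them.

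Markers of general capillary endothelial cells were present in both the responding and the negative cells. The summed level of the 17 measured general capillary markers was 11672, 11136, 11510 and 11648 CPM in the responding cells. In the negative cells it was 13620, 14260, 9335 and 12055 CPM, so the responding cells lay lower in both WT libraries and higher in ERG CKO 1. None of the 17 was 2-fold apart in every library. The gate did not use arterial or lymphatic genes. At least 2 of 8 such genes were detected in 55.4%, 53.7%, 60.3% and 63.0% of the responding cells and in 22.7%, 25.4%, 20.2% and 17.4% of the shallower negative cells. Arterial markers summed to less in the responding cells, 2460, 1746, 2165 and 1614 against 3327, 2693, 2684 and 2590 CPM. Lymphatic Ccl21a stood at 1.71, 0, 0 and 0 against 1077, 266, 9.05 and 0 CPM. Lyve1 went the other way, 1147, 908, 2336 and 1091 against 748, 708, 1256 and 681 CPM. Some cells of either group may thus not be capillary cells. Without cells holding at least 2 of the 8 genes, responding cells were 18.8%, 23.1%, 13.3% and 7.67% of the gate.

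Each of the 5 selecting genes was found in a sizeable share of the capillary gate. Iigp1, an immunity-related GTPase, was detected in 55.3%, 58.1%, 41.9% and 36.3% of gate cells. Isg15 was detected in 34.9%, 41.3%, 32.2% and 23.3%, and Gm4951, another interferon-inducible GTPase gene, in 32.2%, 33.7%, 29.5% and 24.7%. For these 3 genes both WT libraries lay above both ERG CKO libraries.

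Ifit1 was detected in 16.5%, 21.2%, 15.4% and 10.5% of gate cells, again with no overlap between the genotypes, and Ifit3 in 11.1%, 11.5%, 15.9% and 9.56%, where the genotypes overlapped. The mean difference of ERG CKO from WT was -17.6 percentage points for Iigp1, -10.4 for Isg15, -5.82 for Gm4951, -5.85 for Ifit1 and +1.42 for Ifit3. The exact permutation test over the 4 mice, two-sided, gave p = 0.33 for the first 4 of these genes, the smallest value that 2 against 2 mice allow, and p = 1 for Ifit3.

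**Figure D1:**
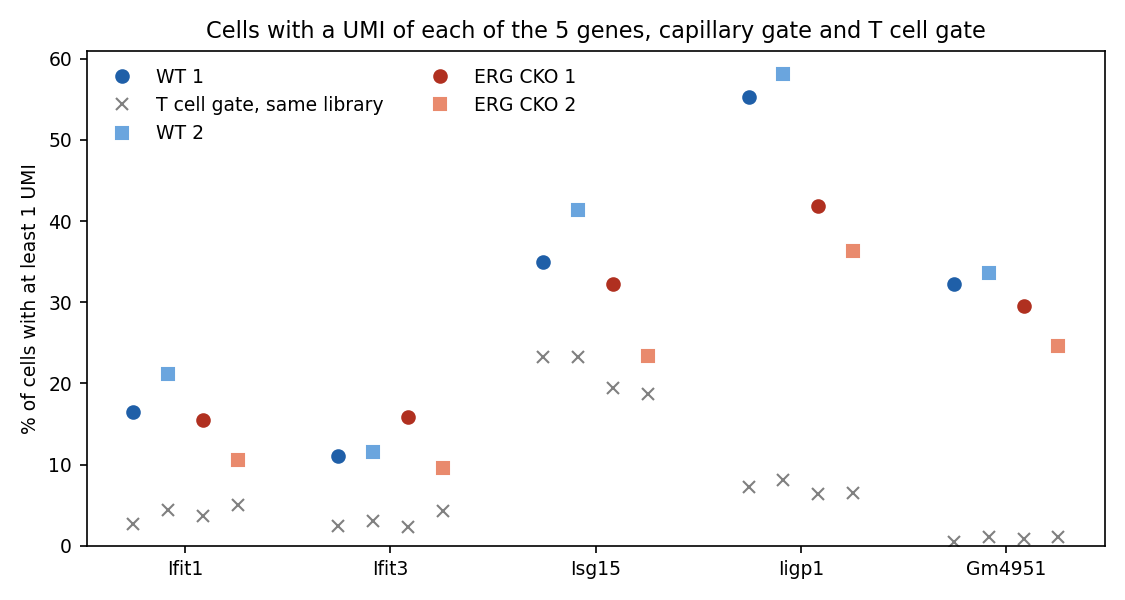
The plot shows, for each of the 5 selecting genes (x axis), the percent of cells with at least 1 UMI (y axis) in the capillary gate of each WT and ERG CKO library (filled points) and in the T cell gate of the same library (crosses). Iigp1 lies at 55.3% and 58.1% in the WT libraries and at 41.9% and 36.3% in the ERG CKO libraries, whereas Ifit3 overlaps between the genotypes.

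T cells, gated in the same libraries, served as a background for free RNA, although lymphocytes can respond to interferon themselves. Between 2.70% and 5.02% of T cells had a UMI of Ifit1 and between 2.24% and 4.30% one of Ifit3. For Gm4951 the range was 0.450% to 1.08%. Isg15 was found in 23.2%, 23.3%, 19.4% and 18.6% of T cells and Iigp1 in 7.21%, 8.13%, 6.33% and 6.45%. Both were thus lower in the T cells of both ERG CKO libraries too, by a mean of -4.24 and -1.28 percentage points (exact permutation test, two-sided, p = 0.33 for each), and the part of this background in the differences of the capillary gate was not tested. The T cells were deeper, with median UMIs of 6070 to 6593 per cell against 3555 to 3663 in the capillary gate. At least 3 of the 5 genes were found together in 0.676%, 2.17%, 1.02% and 1.43% of T cells.

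The 5 genes tended to be found in the same cells. Of all gate cells, 36.8% had none, 23.7% had 1, 16.4% had 2, 11.9% had 3, 7.19% had 4 and 4.01% had all 5, so the number of cells fell at each step and left no gap at the limit of 3. At the limit, cells with exactly 3 genes held a median of 10 UMIs summed over the 5 genes and cells with exactly 2 held 4. Among the responding cells, the commonest combination was Isg15, Iigp1 and Gm4951 without the IFIT genes, in 197 cells (29.5%). Another 122 cells (18.3%) had Ifit1 in addition, and 116 (17.4%) had all 5.

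The levels of the 5 genes within the responding cells are those of the cells that they chose. Iigp1 stood at 1670, 1785, 1522 and 1114 CPM, Isg15 at 527, 584, 476 and 537 CPM and Gm4951 at 413, 427, 449 and 352 CPM. Ifit1 stood at 335, 312, 324 and 256 CPM and Ifit3 at 136, 105, 221 and 192 CPM. The level of Iigp1 lay lower in both ERG CKO libraries than in either WT library, and that of Ifit3 lay higher.

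The interferon-responding cells made up a smaller share of the capillary gate in both ERG CKO libraries than in either WT library. They were 184 of 733 gate cells (25.1%, Wilson 95% interval 22.1 to 28.4) in WT 1 and 216 of 728 (29.7%, 26.5 to 33.1) in WT 2. In ERG CKO 1 they were 194 of 907 (21.4%, 18.8 to 24.2) and in ERG CKO 2 73 of 523 (14.0%, 11.2 to 17.2). The intervals cover counting error only.

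The mean share was 27.4% ± 3.23 (SD, n = 2) in WT and 17.7% ± 5.25 (SD, n = 2) in ERG CKO, a difference of -9.71 percentage points. The genotypes did not overlap, and the exact permutation test, two-sided, gave p = 0.33, the smallest value this design allows, so a difference by genotype could not reach a 0.05 threshold. With a requirement of at least 4 of the 5 genes the shares were 11.9%, 13.7%, 11.9% and 5.54%, and the genotypes then overlapped, with ERG CKO 1 level with WT 1 (exact permutation test, two-sided, p = 0.667).

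**Figure D2:**
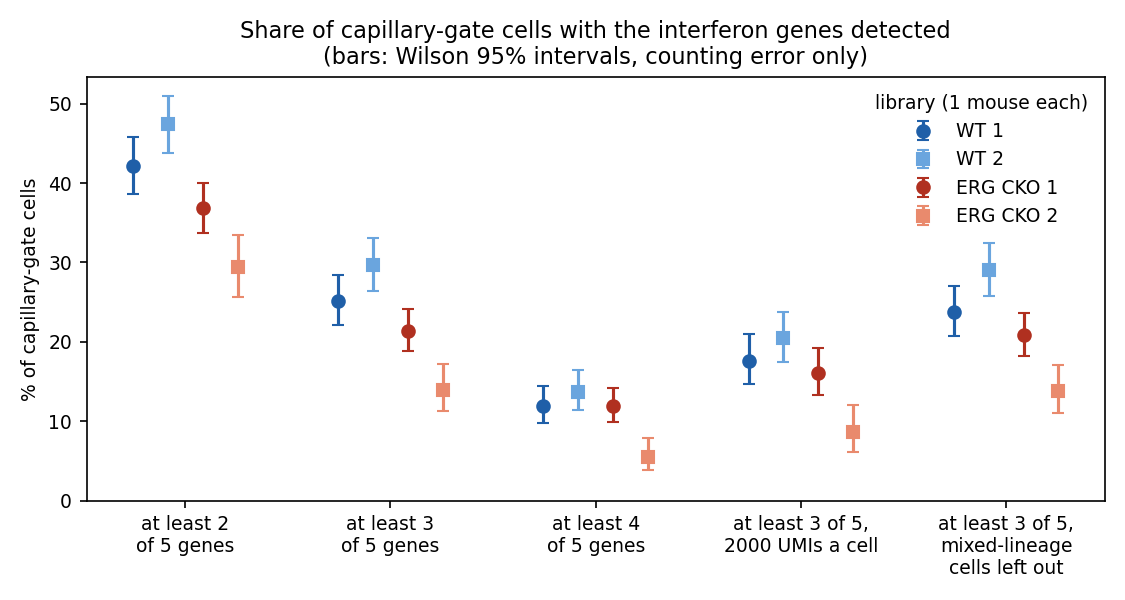
The plot shows the percent of capillary-gate cells counted as responding (y axis) in each WT and ERG CKO library (points, with Wilson 95% intervals for counting error) when at least 2, 3 or 4 of the 5 genes are required, and for at least 3 in cells thinned to 2000 UMIs or with mixed-lineage cells left out (x axis). With at least 3 of 5 the WT libraries lie at 25.1% and 29.7% and the ERG CKO libraries at 21.4% and 14.0%. Of the settings plotted, only the requirement of 4 genes brings ERG CKO 1 level with WT 1.

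Depth was then made equal by drawing 2000 UMIs from each gate cell that had as many. The shares were 17.6% of 563 cells, 20.4% of 607, 16.1% of 603 and 8.60% of 349, with means of 19.0% ± 2.01 (SD, n = 2) in WT and 12.3% ± 5.30 (SD, n = 2) in ERG CKO. The same cells before thinning gave 32.3%, 34.6%, 31.5% and 20.1%. The order of the genotypes was kept, and ERG CKO 1 lay closer to WT 1 than to ERG CKO 2 in both cases.

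Cells with at least 3 of the 5 genes also occurred among the other endothelial gates of these libraries. In the aerocyte gate, the same gate with at least 3 of the aerocyte genes, they were 26.6%, 6.73%, 18.1% and 11.5% of cells. In the venous gate they were 28.9%, 37.3%, 49.5% and 18.5%. In both gates the genotypes overlapped, and the numbers were small, with 68 such cells among 451 in the aerocyte gate and 89 among 225 in the venous gate. These cells were deeper than those of the capillary gate, with median UMIs of 5711 to 6992 per cell. At 2000 UMIs a cell the aerocyte shares were 7.35%, 2.5%, 2.24% and 3.31%. The venous gate then had 4 of 36, 7 of 50, 23 of 98 and 0 of 26 cells (11.1%, 14.0%, 23.5% and 0%, the last allowing a share of up to 11.5%).

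The responding cells carried a broad interferon program beyond the 5 genes that chose them. For each library the level of a gene in the responding cells was divided by its level in the negative cells of the same mouse, after adding 10 CPM to both, and the log2 ratios were averaged over the 4 libraries. Of the 105 measured genes on 12 interferon-related lists, 19 were at least 2-fold higher in every library and none was 2-fold lower in every library. Among all 10597 genes measured, 42 (0.396%) were at least 2-fold higher in every library and 1 (0.00944%) was at least 2-fold lower. The median log2 ratio was 0.51 over the interferon-related genes and -0.05 over all genes, and after thinning to 2000 UMIs it was 0.65 over the interferon-related genes. The 5 selecting genes are not among these counts.

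Cxcl10 was much higher in the responding cells. Its level was 37.7, 112, 423 and 137 CPM in the responding cells against 3.13, 0, 7.92 and 9.94 CPM in the negative cells, a log2 ratio of 3.24 ± 1.15 (SD, n = 4). The transcripts came from few cells, since 17, 21, 45 and 14 of the responding cells had a UMI of Cxcl10, and 1 cell of ERG CKO 1 held 188 of the 576 UMIs of that library. The other chemokines and ligands on its list did not share this pattern in every library, as Cxcl10 was the only member of 8 that was 2-fold higher in all 4.

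Genes of the immunity-related GTPases, which attack the membranes that shelter intracellular pathogens, were high as a group. Of 6 measured members, 4 were at least 2-fold higher in every library (Irgm1, Irgm2, Igtp and Tgtp2), with a median log2 ratio of 1.55 over the list. Igtp stood at 194, 183, 143 and 128 CPM in the responding cells and at 25.0, 47.7, 27.2 and 28.2 CPM in the negative cells (log2 ratio 2.05 ± 0.35, SD, n = 4). Irgm1, which regulates the other members, stood at 255, 294, 178 and 185 CPM against 59.5, 81.7, 38.5 and 58.0 CPM (1.78 ± 0.20). The 2 groups of cells did not overlap for either gene.

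Tgtp2 stood at 66.7, 64.3, 55.8 and 84.6 CPM against 9.39, 11.9, 9.05 and 9.94 CPM (1.94 ± 0.22, SD, n = 4), with the reservation that its reads may be shared with its near copy Tgtp1. Of the 8 measured guanylate-binding proteins, a related GTPase family, 2 were 2-fold higher in every library, Gbp4 (1.32 ± 0.32) and Gbp6 (1.46 ± 0.25). Gbp7 missed the limit in some libraries, at 301, 289, 306 and 231 CPM against 117, 141, 129 and 129 CPM (1.06 ± 0.22).

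Transcription factors and feedback inhibitors of interferon signalling were higher as well, with 5 of 14 measured genes at least 2-fold higher in every library. Irf1, a transcription factor that interferon-gamma induces early, stood at 916, 1055, 785 and 718 CPM against 230, 277, 187 and 237 CPM (1.85 ± 0.20, SD, n = 4). Irf7, which amplifies the type I response, stood at 53.9, 60.5, 80.0 and 73.2 CPM against 18.8, 15.3, 31.7 and 18.2 CPM (1.32 ± 0.23). Irf8 had a log2 ratio of 1.20 ± 0.14.

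The inhibitor Socs1 stood at 70.2, 143, 80.0 and 66.3 CPM against 15.6, 20.4, 13.6 and 8.28 CPM (1.99 ± 0.28, SD, n = 4). Socs3, an inhibitor of STAT3 signalling, stood at 1740, 1984, 1552 and 1239 CPM against 480, 916, 377 and 600 CPM (1.50 ± 0.50). None of the 5 measured receptor genes was 2-fold higher in every library, and Ifngr1, a chain of the interferon-gamma receptor, had a log2 ratio of -0.12 ± 0.23.

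**Figure D3:**
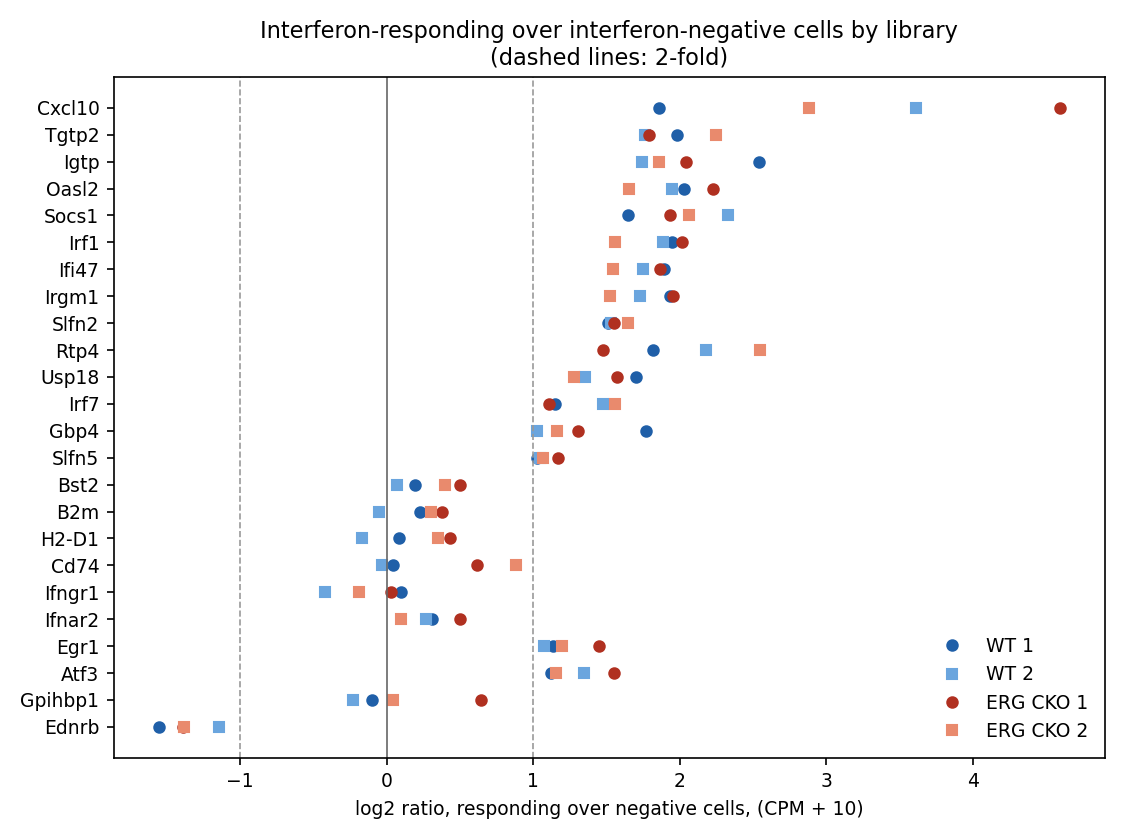
The plot shows the log2 ratio of interferon-responding over interferon-negative capillary-gate cells after adding 10 CPM (x axis) for named genes (y axis), with 1 point per library and dashed lines at 2-fold. Cxcl10 ranges widely above the 2-fold line, and the GTPase, IRF and antiviral genes other than Bst2 lie above it in every library. The antigen presentation genes B2m, H2-D1 and Cd74 lie below the 2-fold line in every library, and below 0 in WT 2.

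Antiviral genes that answer mainly to type I interferon and GTPase or IRF genes that answer mainly to interferon-gamma were both high. Among all 10597 genes measured, 885 were above the negative cells in every library. Of 13 measured genes on the mainly type I list, all 13 were above the negative cells in every library and 4 were at least 2-fold above (Oasl2, Usp18, Irf7 and Rtp4), with a median log2 ratio of 1.07. Of 18 on the mainly interferon-gamma list, 11 were above in every library and 7 at least 2-fold above (Gbp4, Gbp6, Irf1, Irf8, Igtp, Irgm2 and Socs1), with a median of 1.09. Many of these genes respond to both kinds of interferon, so the lists do not separate the 2 signals.

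Oasl2, a relative of the viral RNA sensors of the OAS family, stood at 158, 173, 217 and 126 CPM against 31.3, 37.4, 38.5 and 33.1 CPM (1.97 ± 0.24, SD, n = 4). Rtp4, an antiviral RNA-binding protein, stood at 175, 251, 182 and 213 CPM against 42.3, 47.7, 58.8 and 28.2 CPM (2.01 ± 0.46). Usp18, the protease that removes ISG15, stood at 42.8, 37.4, 60.2 and 50.3 CPM against 6.26, 8.51, 13.6 and 14.9 CPM (1.48 ± 0.19). Of the 22 antiviral effectors measured, 18 were above the negative cells in every library, beside 885 of all 10597 genes. Of the 22, 4 were 2-fold above, namely Slfn2, Slfn5, Ifi47 and Rtp4. The restriction factors Ifitm3 (0.57 ± 0.13) and Bst2 (0.29 ± 0.19) were higher in every library by less than 2-fold.

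Antigen presentation genes differed little. None of the 19 measured genes of class I presentation and none of the 7 of class II presentation was 2-fold higher in every library, and the list medians were 0.18 and 0.17. B2m, the invariant chain of class I molecules, stood at 2292, 2654, 3166 and 2833 CPM against 1959, 2754, 2430 and 2295 CPM (0.21 ± 0.19, SD, n = 4). Cd74, the class II chaperone, stood at 979, 1425, 1697 and 1399 CPM against 950, 1455, 1102 and 755 CPM (0.38 ± 0.44). The levels of both genes overlapped between the responding and the negative cells. After thinning, both genes lay above the negative cells of the same mouse in every library. The log2 ratios were then 0.20 to 0.44 for B2m and 0.29 to 0.86 for Cd74. The class I gene H2-D1 ranged from -0.05 to 0.47 after thinning, so it was not above in every library. The thinned list medians were 0.33 for class I and 0.42 for class II.

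**Figure D4:**
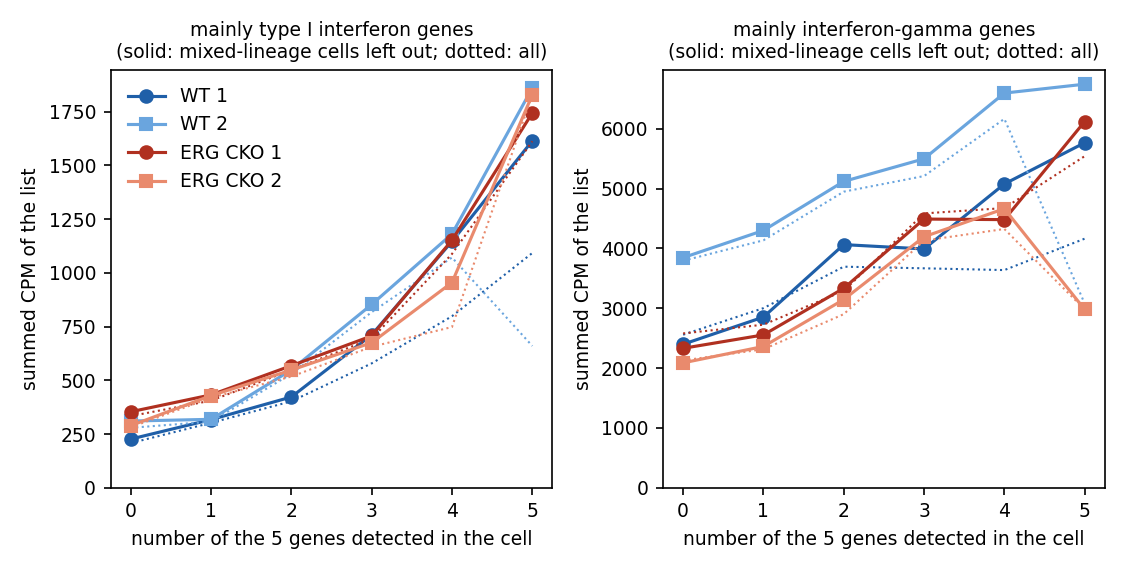
The panels show the summed CPM of the mainly type I (left) and mainly interferon-gamma lists (right, y axes) against the number of the 5 selecting genes detected in a cell (x axes), with 1 line per library, solid with mixed-lineage cells left out and dotted for all cells. The solid type I lines climb at each step, from 227 to 1614 CPM in WT 1, whereas the interferon-gamma lines dip slightly at 1 step in WT 1 and ERG CKO 1 and fall at the last step, of 14 cells, in ERG CKO 2.

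The summed level of the other interferon genes differed with the number of selecting genes a cell had. With mixed-lineage cells left out, the summed level of the mainly type I list was 227, 311, 354 and 289 CPM in cells with none of the 5 genes and 1614, 1860, 1743 and 1828 CPM in cells with all 5, and it was higher at every step in each library. The summed level of the interferon-gamma list went from 2399, 3846, 2331 and 2088 CPM to 5765, 6744, 6120 and 2980 CPM. This sum did not climb at every step. It fell slightly from 2 to 3 genes in WT 1 (4063 to 3991 CPM) and from 3 to 4 genes in ERG CKO 1 (4490 to 4481 CPM), and in ERG CKO 2 it fell from 4663 CPM with 4 genes (13 cells) to 2980 CPM with 5 (14 cells). With mixed-lineage cells included, the cells of WT 2 with all 5 genes stood at 660 CPM for the type I list and 3079 CPM for the interferon-gamma list.

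Immediate-early genes, which tissue dissociation is known to induce, were higher in the responding cells. Of 15 measured genes on a dissociation stress list, 12 were above the negative cells in every library and 4 were at least 2-fold above (Egr1, Atf3, Ier3 and Zfp36), with a median log2 ratio of 0.79. Over all 10597 genes, 885 were above in every library and 42 were 2-fold above. Egr1, a growth-factor-induced transcription factor, stood at 2790, 2815, 1993 and 1999 CPM against 1264, 1333, 724 and 868 CPM (1.21 ± 0.16, SD, n = 4). Most of these genes lay lower in ERG CKO, with 2 of 15 above 0 in the responding cells and 2 in the negative cells. In the responding cells the median log2 difference of ERG CKO from WT was -0.31. There 7 of 15 had an unadjusted p under 0.05 by edgeR, beside 889 of all 9471 genes, and none passed the adjusted threshold. In the negative cells the median was -0.78, and 14 of 15 had an unadjusted p under 0.05, beside 862 of all 7543. None of them passed by edgeR, and DESeq2 called 2 in each group of cells. Without mixed-lineage cells, 11 of 15 in the responding cells had an unadjusted p under 0.05, beside 853 of all 8094 genes. Of the 15, 1 passed, Dnajb1, a heat shock co-chaperone (-0.97 ± 0.20, edgeR adjusted p = 0.0254). Most dissociation stress genes thus lay lower in the genotype with the smaller share of responding cells, and their part in the interferon genes or in that share was not tested. Of 10 measured NF-κB targets, 1 was 2-fold higher in every library, Bcl3, itself a regulator of NF-κB, with a median of 0.63 over the list.

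Outside these lists, Tmem252, a gene for a small membrane protein, stood at 406, 238, 923 and 279 CPM in the responding cells against 102, 73.2, 207 and 82.8 CPM in the negative cells (1.80 ± 0.24, SD, n = 4). The single gene that was at least 2-fold lower in every library was Ednrb, the endothelin receptor of aerocytes, with a log2 ratio of -1.37 ± 0.17. Ednrb was one of the genes whose detection limited the gate, so its level is not independent of the selection.

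Among the 42 genes that were 2-fold higher in every library, 31 had a promoter entry, and 9 of these (29.0%) held the response element core shown above, against 3.79% of the 8121 measured genes with an entry. They were Cxcl10, Tgtp2, Igtp, Socs1, Irgm1, Ifit3b, Gm12216, Slfn5 and Irgm2. The gamma-activated core TTCNNNGAA, which reads the same on both strands, was likewise in 9 of the 31 (29.0%) and in 8.25% of the measured genes.

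The genotype comparison within the responding cells began with Erg, the targeted gene. Erg stood at 75.3, 71.0, 101 and 70.9 CPM in the responding cells, a log2 difference of ERG CKO from WT of 0.17 ± 0.22 (SE) with an adjusted p = 0.917 by edgeR's quasi-likelihood test with Benjamini-Hochberg adjustment. In the negative cells it stood at 113, 91.9, 97.3 and 91.1 CPM (-0.19 ± 0.20, adjusted p = 0.826). Reads of such libraries come from the end of a transcript, whereas the Cre removes an inner exon, so these values do not check the deletion.

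The genes that differed by genotype in the responding cells included endothelial genes that were higher in ERG CKO and airway epithelial genes that were lower. In the UMIs of the responding cells summed per mouse, 23 of 9471 genes (0.243%) passed an adjusted p of 0.05 by edgeR's quasi-likelihood test with Benjamini-Hochberg adjustment, 11 higher and 12 lower in ERG CKO. A fit with the replicate number as a block, which here is also the sex of the mouse, called 437 genes, the 23 among them. With mixed-lineage cells left out, 105 of 8094 genes (1.30%) passed, 66 higher and 39 lower, and they included all 11 of the higher genes and none of the 12 lower genes. Log2 differences below carry the SE of the fit, and for genes with few UMIs in WT their size depends on the prior count.

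F8, the gene of coagulation factor VIII, stood at 4.28, 2.24, 88.0 and 77.7 CPM in the responding cells (log2 difference 4.54 ± 0.36, edgeR adjusted p = 0.0059). Its difference in the negative cells was 2.52 ± 0.47 (adjusted p = 0.0396). Emcn, an endothelial surface sialomucin, stood at 198, 172, 692 and 860 CPM (1.94 ± 0.19, edgeR adjusted p = 0.0132), and at a difference of 1.85 ± 0.21 in the negative cells (adjusted p = 0.00379). Without mixed-lineage cells the difference of Emcn in the responding cells was 1.71 (adjusted p = 0.000546). The genotypes did not overlap for either gene.

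Cd34, a sialomucin of capillary and progenitor cells, stood at 95.8, 62.8, 273 and 386 CPM (1.92 ± 0.24, edgeR adjusted p = 0.0403). Apln, the apelin ligand expressed by aerocytes and by sprouting endothelium, stood at 5.99, 0.747, 52.1 and 117 CPM (4.44 ± 0.64, edgeR adjusted p = 0.0491). Both passed in the negative cells as well, with differences of 1.89 and 3.01 ± 0.33 (adjusted p = 0.00365 for each). Of the 10 measured aerocyte genes outside the gate, 2 were higher in ERG CKO, Emcn and Apln. Of the 17 general capillary markers none passed in either direction in the responding cells, with a median of -0.06. With mixed-lineage cells left out their median was -0.24, and 8 had an unadjusted p under 0.05 by edgeR, beside 853 of all 8094 genes. In the negative cells 3 of the 17 were lower in ERG CKO, the receptors Aplnr (-1.43 ± 0.27, edgeR adjusted p = 0.043) and Tek (-1.06 ± 0.18, adjusted p = 0.0263) and the lipase anchor Gpihbp1 (-0.94 ± 0.19, adjusted p = 0.0472), and Kit passed too with mixed-lineage cells left out (-0.89 ± 0.19, adjusted p = 0.0425). In the responding cells these differences were -0.43 ± 0.21 for Aplnr, -0.46 ± 0.18 for Tek and -0.46 ± 0.20 for Gpihbp1.

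Piezo2, a mechanically gated ion channel, stood at 39.4, 27.7, 121 and 103 CPM (1.65 ± 0.23, edgeR adjusted p = 0.044), and Tgfbi, an extracellular matrix protein induced by TGF-β, at 0.856, 2.99, 106 and 66.3 CPM (5.29 ± 0.49, adjusted p = 0.0111). Clca3a1, a chloride channel regulator of endothelium, stood at 6.85, 5.98, 71.9 and 135 CPM (3.79 ± 0.40, adjusted p = 0.0143), and Filip1l at 98.4, 76.2, 236 and 252 CPM (1.36 ± 0.18, adjusted p = 0.0428). For all 4 genes the ERG CKO libraries lay above the WT libraries. The remaining higher genes were Ces2e (adjusted p = 0.0434), Klhl6 (adjusted p = 0.0477) and Ifi27l2a.

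Ifi27l2a is also induced by interferon, although it was kept on a list of inflammatory genes and not on the interferon-related lists. It stood at 21.4, 4.48, 244 and 354 CPM (log2 difference 4.43 ± 0.46, edgeR adjusted p = 0.0143), and at 40.7, 3.40, 368 and 116 CPM in the negative cells (3.37, adjusted p = 0.0534), where it passed with mixed-lineage cells left out (3.25 ± 0.66, edgeR adjusted p = 0.0328). Between responding and negative cells its log2 ratio was 0.09 ± 1.02 (SD, n = 4), above 0 in WT 2 and ERG CKO 2 and below 0 in the other libraries.

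**Figure D5:**
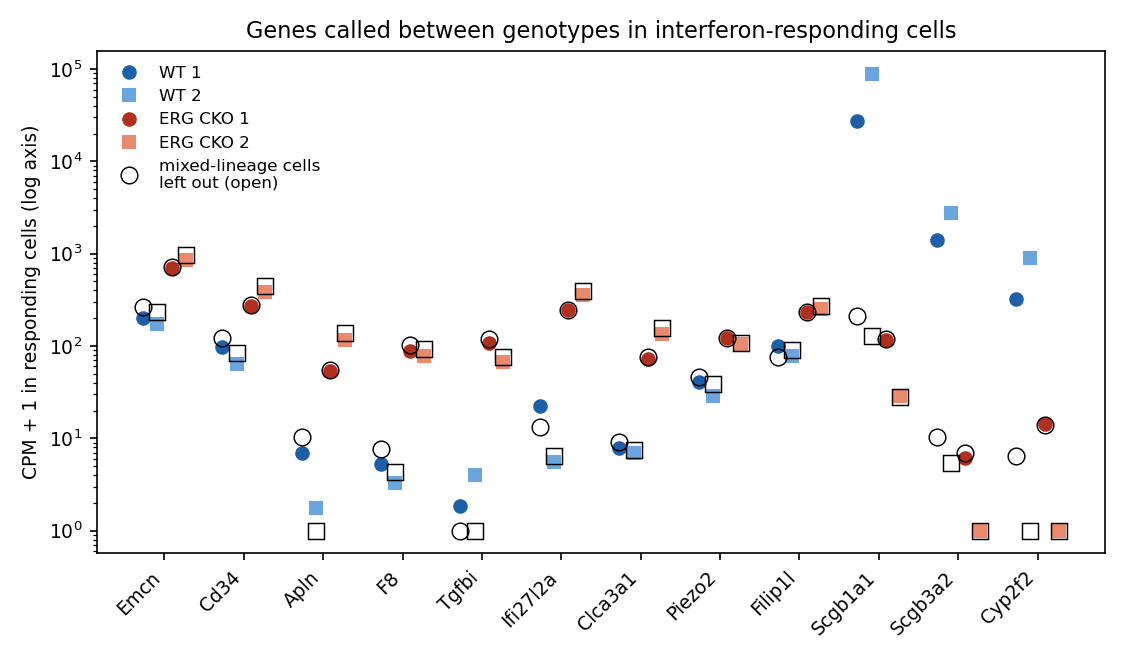
The plot shows CPM + 1 in the interferon-responding cells (y axis, log scale) for 12 genes called between genotypes (x axis), with 1 filled point per WT and ERG CKO library for all cells and an open one with mixed-lineage cells left out. Emcn lies at 198 and 172 CPM in WT and at 692 and 860 CPM in ERG CKO, and the open points of Scgb1a1, Scgb3a2 and Cyp2f2 in WT fall far below the filled ones.

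The 12 genes that were lower in ERG CKO included Scgb1a1, Scgb3a2 and Cyp2f2, which mark club cells, and Ccdc153 and Tmem212, which mark ciliated airway cells. Scgb1a1, the secretoglobin of club cells, stood at 27681, 89460, 115 and 27.4 CPM (log2 difference -9.72 ± 0.90, edgeR adjusted p = 0.0111). In WT 1, 1 cell held 32103 of its 32348 UMIs, and in WT 2 1 cell held 119501 of 119689. With mixed-lineage cells left out, Scgb1a1 stood at 208, 129, 117 and 26.9 CPM (-1.0 ± 0.36, adjusted p = 0.299).

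No gene on the interferon-related lists passed between the genotypes in the responding cells with all cells included. The interferon-induced Ifi27l2a, kept on another list, passed as given above. Of the 105 tested genes on the interferon-related lists, none passed by edgeR and none by DESeq2, while 24 had an unadjusted p under 0.05 by edgeR, beside 889 of the 9471 genes tested in all. The median log2 difference of the list was 0.06. Irf1 had a log2 difference of ERG CKO from WT of -0.52 ± 0.19 (edgeR adjusted p = 0.414). The value for Cxcl10 was 1.80 ± 0.59 (adjusted p = 0.347), and the 112 CPM of WT 2 lay just under the 137 CPM of ERG CKO 2. In the negative cells, where 91 of 7543 genes (1.21%) passed by edgeR, none of 78 tested genes of the lists passed by edgeR or DESeq2, 20 had an unadjusted p under 0.05, beside 862 of all 7543, and the median log2 difference was -0.22.

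With mixed-lineage cells left out, 3 of 102 tested interferon-related genes passed in the responding cells. Irgm1 stood at 347, 398, 186 and 207 CPM, a log2 difference of -0.97 ± 0.19 (edgeR adjusted p = 0.0231), and Socs3 differed by -0.67 ± 0.15 (adjusted p = 0.0407). Cxcl9, a chemokine induced by interferon-gamma, had 0, 0, 314 and 15 UMIs in 0, 0, 5 and 1 of the responding cells (adjusted p = 0.00216), so 6 cells carried all of its transcripts. A count of 0 among 162 and 202 cells allows a share of up to 1.85% and 1.49% of WT cells with a UMI at 3 counts, beside 2.79% and 1.43% in the ERG CKO libraries. The 105 genes called over all genes in this fit include Iigp1, which is no test, since its counts chose the cells.

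Whether the difference by genotype itself differed between responding and negative cells was tested with the state by genotype term of a model over the 8 sums of 4 mice. This term passed for 23 of 8879 genes (0.259%) by edgeR's quasi-likelihood test with Benjamini-Hochberg adjustment, and for 26 of 8260 (0.315%) with mixed-lineage cells left out, of which 5 were shared (Tppp3, Gsn, Slc12a2, 1810011O10Rik and Sema7a). None of the 102 tested interferon-related genes passed by edgeR or DESeq2, and 14 had an unadjusted p under 0.05, beside 639 of all 8879. Leaving out mixed-lineage cells, 1 passed, Ifi35, a regulator of innate signalling (1.15 ± 0.26, edgeR adjusted p = 0.0328). With all cells included, where it did not pass, Ifi35 stood at 105, 107, 150 and 183 CPM in the responding cells and 100, 117, 78.1 and 74.5 CPM in the negative cells.

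Slc12a2, a sodium, potassium and chloride cotransporter, differed more by genotype in the negative cells than in the responding cells. It stood at 28.2, 34.0, 261 and 336 CPM in the negative cells (log2 difference 3.18 ± 0.23, edgeR adjusted p = 0.000767) and at 75.3, 26.9, 69.0 and 119 CPM in the responding cells (0.71 ± 0.42), where the genotypes overlapped. With mixed-lineage cells left out the responding cells stood at 17.5, 10.9, 64.9 and 105 CPM and the gene passed in them as well (2.46 ± 0.35, edgeR adjusted p = 0.00289), beside 5.07 ± 0.35 in the negative cells, and the state by genotype term was -2.63 (adjusted p = 0.0162). Tppp3, a tubulin-binding protein, stood at 68.9, 51.1, 195 and 260 CPM in the negative cells and at 163, 134, 79.2 and 139 CPM in the responding cells. Sema7a, a membrane-anchored semaphorin, went the other way, at 73.5, 57.9, 47.5 and 33.1 CPM in the negative and 33.4, 26.9, 87.3 and 57.2 CPM in the responding cells. With cells that carried at least 2 arterial or lymphatic genes left out, this term passed for 0 genes (350 at an unadjusted p under 0.05).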

How the data were processed

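Lung cells of 2 WT and 2 ERG CKO mice were profiled by single-cell RNA-seq, and the table deposited by the authors holds raw UMI counts per gene and cell, made per the submitters' processing notes with Cell Ranger 3.1.0 and mm10; the annotation and the filter on cells are not given in the sources used here. No cell annotation was used, and the cells were gated as stated above. The members and gene lists were chosen with earlier results of these data known. The counts of a state were summed per mouse (the replicate) and tested with edgeR 4.0.16 (TMM, filterByExpr, quasi-likelihood test, Benjamini-Hochberg adjustment) in R 4.3.3. DESeq2 1.42.0 was an alternative. Shares were compared by exact permutation in scipy 1.17.1 with Python 3.11.15. Ratios between states used CPM with 10 CPM added, over genes with at least 50 UMIs in the gate. Other settings were a mitochondrial limit of 10%, thinning to 2000 or 1000 UMIs, other gates, no count filter and leaving out each library. Mixed-lineage, arterial and lymphatic cells were left out as alternatives added after the data were seen. Named genes were up to 4 per list by mean CPM, the 10 most separated between states, and the 10 with the smallest p per genotype comparison; others were named after their values were seen. Scrublet marked 60 cells (0.641%) as doublets, which stayed in the main comparison, and 14 barcodes (0.150%) occurred in more than 1 library, 1 of them in a responding cell. On simulated counts for the responding cells (9359 genes), the test recovered 38% of genes changed by 1 and 88% of those changed by 2 on the log2 scale. The simulation gave every gene the same fixed spread between mice and changed only genes above a minimum of UMIs. Recovery on the real counts may therefore be lower. Some genes are not reported here.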

Additional observations from a re-analysis of the deposited data

Results flagged for a closer look

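For 12 genes the difference of ERG CKO from WT differed between interferon-responding and interferon-negative cells by the state by genotype term of edgeR's quasi-likelihood test, and these are given here on the log2 scale as the difference in responding cells minus that in negative cells. The club cell genes Scgb1a1 (-8.89), Scgb3a2 (-9.39) and Cyp2f2 (-6.86), and Ces1d (-2.48), Aldh1a1 (-2.03), Mt1 (-2.30) and the neutrophil gene S100a8 (6.36), were not called once mixed-lineage cells were left out. Tppp3 (-2.50), Gsn (-2.70), Slc12a2 (-2.47), 1810011O10Rik (1.22) and Sema7a (1.89) were called with and without these cells.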

How the results depend on the processing

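The mean share of interferon-responding cells was lower in ERG CKO under every alternative run, and leaving out each mouse in turn gave differences from -13.4 to -6.00 percentage points. In responding cells the 23 genes called between genotypes became 105 without mixed-lineage cells, 46 without arterial and lymphatic cells, 54 by DESeq2, 534 without a count filter and 50 to 316 without 1 mouse, the lowest without ERG CKO 1 and the highest without WT 2 (294 without WT 1, 137 without ERG CKO 2). In negative cells 91 became 47 with the mitochondrial limit, 36 after thinning, 8 without arterial and lymphatic cells, 49 by DESeq2, 395 without the filter and 80 to 425 without 1 mouse (425 without ERG CKO 2, 278 without ERG CKO 1). For the difference between states 23 became 4 with at least 2 of the 5 genes, 9 after thinning, 0 without arterial and lymphatic cells (350 at an unadjusted p under 0.05), 5 by DESeq2, 124 without the filter and 15 (without WT 2) to 192 (without ERG CKO 2; 111 without ERG CKO 1). Interferon-related genes at least 2-fold higher in every library numbered 19, and 29 with 1 CPM added, 6 with 50 CPM, 10 against all other gate cells and 19 to 29 without 1 mouse (29 without WT 2). Directions reversed for Mgst1 (0.62 thinned, 1.28 without mixed-lineage cells) and Nupr1 (0.26, 0.22) in responding cells, and without mixed-lineage cells for Lyz2 (0.39) in negative cells and Aldh1a1 (0.0164), Mt1 (1.54) and Thbs1 (0.31) between states. Of the values of named genes under alternatives, 37 in responding cells, 39 in negative cells and 116 between states kept their direction but missed the threshold. Where 1 mouse was left out, the lone mouse of its genotype was assumed to vary like the other genotype. A replicate block, whose numbers the labels do not tie to litters or days but which coincide with the sex read from Xist and Ddx3y, gave 437 calls in responding and 264 in negative cells. The causes of these shifts were not tested. With 2 mice a genotype, depth and the 73 responding cells of ERG CKO 2 limit what can be called.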
